A study of Mus musculus with 6 samples.

Results

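The circadian clock genes were examined in whole kidney of Pck1-CKO and wild-type (WT) mice. The set holds 10 genes, Arntl (also called Bmal1), Npas2, Per2, Per3, Cry1, Cry2, Nr1d1, Nr1d2, Dbp and Tef, of 23785 genes named on the array. Its members were found as the probes whose RefSeq accession maps to one of these symbols, which gave 19 probes and at least 1 for each gene. Total RNA was hybridised to 6 Agilent 1-colour arrays, 3 per genotype. Both groups were C57BL/6J mice killed at 32 weeks. The Pck1-CKO mice carried a floxed Pck1 (Pck1 flox/flox) and a γGT-Cre transgene (γGT-Cre tg/+), which deletes the gene in the renal proximal tubule, so the other cells of the kidney keep it. The WT controls were littermates of like age and sex. Breeding produced 3 kinds of control genotype, of which 1 carried the transgene (Pck1 flox/+ with γGT-Cre tg/+) and the others did not (Pck1 flox/+ or flox/flox), and the labels do not say which of them a WT array came from. Neither the hour at which the mice were killed nor whether each array was a separate mouse is given in the sources used here, so each p-value measures only how these samples varied.

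The molecular clock is a feedback loop that runs in nearly every cell. ARNTL pairs with CLOCK or its relative NPAS2 and switches on genes with E-box elements, among them the Per and Cry genes, whose proteins return to repress ARNTL and CLOCK. The same pair drives Nr1d1 and Nr1d2, which encode the repressors REV-ERBα and REV-ERBβ, and these in turn hold down Arntl through ROR elements. Dbp and Tef encode PAR bZIP factors, which carry the rhythm to output genes through D-box elements. Arntl and its partners therefore peak at about the opposite time of day to Dbp, Nr1d1 and Per3, and in kidney the clock sets daily rhythms of salt, water and drug handling.

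The elements of these loops were looked up in the RefSeq promoter windows of GRCm38.p6, which run from 250 bases before to 50 bases after a start site. Windows were found for 9 of the 10 genes, and Per2 did not match. The letters searched on both strands were CACGTG for the E-box, CACGTT for its variant the E-prime box, TTANGNAA for the D-box, TAGGTCA for the core of the ROR element and TGACGNCA for the cyclic AMP element. Of all 32851 windows, 7.15% held the E-box, 4.68% the E-prime box, 11.5% the D-box, 2.61% the ROR core and 3.21% the cyclic AMP element. Per3 held a pair of D-boxes, beginning 205 and 158 bases before its start. Cry1 held an E-prime box at 79 bases and an E-box at 60 bases, Cry2 an E-prime box at 166 bases and Nr1d1 an E-prime box at 28 bases before the start. Both windows of Tef held an E-box, 127 and 138 bases before their starts. One of the windows of Arntl held the ROR core 30 bases after its start and a D-box match, TTAGGGAA, 13 bases after it. No match to these letters was found in the windows of Dbp, Npas2 and Nr1d2, and no member held the cyclic AMP element. A match is a run of letters and not evidence of binding. The 250 bases before the start are shown for the genes with a D-box or an E-prime box there, 5′ to 3′ with the matches in capitals, and for Arntl the stretch around the ROR core.
Per3, chr4:151044666-151044915, minus strand: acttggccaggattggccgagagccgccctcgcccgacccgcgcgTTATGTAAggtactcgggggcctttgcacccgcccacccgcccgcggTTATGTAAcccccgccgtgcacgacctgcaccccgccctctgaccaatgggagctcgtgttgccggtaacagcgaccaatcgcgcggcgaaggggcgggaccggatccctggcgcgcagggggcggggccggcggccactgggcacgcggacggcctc
Cry1, chr10:85185055-85185304, minus strand: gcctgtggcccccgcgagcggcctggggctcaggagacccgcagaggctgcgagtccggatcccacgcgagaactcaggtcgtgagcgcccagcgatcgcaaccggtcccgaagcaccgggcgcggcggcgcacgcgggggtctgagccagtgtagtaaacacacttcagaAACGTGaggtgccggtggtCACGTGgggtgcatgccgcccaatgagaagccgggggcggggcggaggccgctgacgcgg
Cry2, chr2:92434070-92434319, minus strand: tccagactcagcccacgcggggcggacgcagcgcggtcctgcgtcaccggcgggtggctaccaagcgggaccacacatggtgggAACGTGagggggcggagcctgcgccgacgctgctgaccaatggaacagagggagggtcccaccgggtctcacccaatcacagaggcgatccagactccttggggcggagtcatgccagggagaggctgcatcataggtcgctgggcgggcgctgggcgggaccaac
Nr1d1, chr11:98775378-98775627, minus strand: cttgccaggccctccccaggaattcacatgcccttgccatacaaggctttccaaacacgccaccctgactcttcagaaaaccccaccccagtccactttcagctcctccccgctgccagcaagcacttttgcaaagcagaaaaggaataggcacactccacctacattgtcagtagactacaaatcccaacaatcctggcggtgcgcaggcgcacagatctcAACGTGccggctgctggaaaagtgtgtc
Arntl, chr7:113207531-113207550, plus strand: aggcagaaagTAGGTCAggg

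The arrays were alike in overall signal. Between 37118 and 38708 of 56605 probes lay well above background on an array, the 75th percentile of the processed signal was between 528.9 and 583.1, and 0 spots were saturated. Precision is limited by there being 3 arrays a group. The targeted gene did not separate the labels in the direction of a knockout. Its log2 difference was 0.56 ± 0.22 (limma adjusted p = 0.152), and every array labelled Pck1-CKO lay above every array labelled WT. Pck1, on 1 probe of unstated position relative to the deleted part, was 6.29, 6.32 and 5.63 in the arrays labelled WT and 6.44, 6.60 and 6.90 in those labelled Pck1-CKO, on the scale of normalised log2 signal used below (log2 of the processed signal minus the array's 75th percentile). A probe outside the deleted part checks nothing, so every direction here is that of the libraries as labelled. All 14 kidney markers were well above background on every array, and their summed signal, in multiples of the 75th percentile, ran from 1570 to 1620 for WT and from 1600 to 1670 for Pck1-CKO. Of 10 adrenal markers 5 were not well above background on any array, among them the steroid enzyme genes Cyp11a1, Cyp11b1 and Cyp11b2. Another 4 (Cyp21a1, Hsd3b1, Star and Th) were well above background on all 6 arrays, and Mc2r on 2 WT and 3 Pck1-CKO arrays. Of the kidney markers 1 passed the test as higher and 3 as lower. The summed adrenal signal ran from 0.89 to 0.924 for WT and from 0.828 to 0.859 for Pck1-CKO. For immune markers the sum ran from 55.3 to 59.9 for WT and from 47.1 to 52.8 for Pck1-CKO. The blood sums overlapped. The 14 adipose markers differed more. Their summed signal ran from 17.6 to 40.1 for WT and from 126 to 187 for Pck1-CKO, 7 of 14 passed the test as higher and all 14 had a positive change, with Ucp1, the uncoupling protein of brown fat, at a log2 change of 5.23, Cox8b at 3.88, Fabp4 at 1.25 and Elovl3. The part of adipose RNA in the clock gene values was not tested. In a whole organ, fewer cells of a type and less RNA per cell cannot be told apart. All arrays shared 1 slide. WT filled its row 1 and Pck1-CKO its row 2, and the effect of the row cannot be told apart from that of genotype.

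The comparison of the genotypes asks what the loss of Pck1 from the proximal tubule changes, and here whether clock genes differ. None of the 10 clock genes passed limma's test at an adjusted p under 0.05 over all 17136 tested genes, 0 higher and 0 lower. Of all tested genes, 8.04% passed, 4.34% as higher and 3.7% as lower. By median centring of the arrays in place of the 75th percentile, the split of all calls was 1295 higher and 565 lower against 743 and 634. At an unadjusted p under 0.05 stood 6 clock genes, 1 higher (Arntl) and 5 lower (Per3, Cry2, Nr1d1, Nr1d2 and Dbp), beside 31.2% of all tested genes (17.5% higher and 13.7% lower). In 5 of the 10 the groups did not overlap, 1 with Pck1-CKO higher and 4 with it lower, where 38.3% of all genes did not overlap, 21.9% with Pck1-CKO higher and 16.4% lower. The median absolute log2 difference was 0.46 over the clock genes and 0.12 over all tested genes. The spread between arrays of one genotype was also wide, as given for each gene below.

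Arntl, the obligate activator of the loop, had normalised log2 signals of -1.25, -1.46 and -2.49 on the WT arrays and -0.78, -0.70 and -1.17 on the Pck1-CKO arrays. Every Pck1-CKO array lay above every WT array, with the lowest Pck1-CKO array just above the highest WT array and WT 3 far below the rest. The log2 difference was 0.85 ± 0.34 (SE, n = 3 per group), 1.80-fold, with limma adjusted p = 0.16. Without WT 3 it was 0.47. Its other 2 probes gave 0.82 ± 0.34 and 0.79 ± 0.36. On the first of these, WT 2 and Pck1-CKO 3 both stood at -3.16 after rounding. On the second the groups overlapped, with WT 2 at -2.88 and Pck1-CKO 3 at -2.91. Npas2, the CLOCK relative that can replace it, was dim and well above background on 4 of 6 arrays. Its values were -4.78, -5.14 and -6.34 on the WT arrays and -5.56, -4.84 and -5.12 on the Pck1-CKO arrays. The groups overlapped, the difference was 0.25 ± 0.43 (limma adjusted p = 0.729), and without WT 3 its sign turned, to -0.21.

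Among the repressor genes, Per3 and Cry2 did not overlap between the groups, whereas Per2 and Cry1 did. Per3, a Period gene with a strong rhythm in peripheral tissue, had signals of -0.07, -0.07 and 0.40 on the WT arrays and -0.61, -0.56 and -0.22 on the Pck1-CKO arrays. All Pck1-CKO arrays lay below all WT arrays, and replicate 3 was the highest array of both groups. The log2 difference was -0.55 ± 0.17 (limma adjusted p = 0.095), and its other probe, for another transcript accession, gave -0.81 ± 0.28. Cry2, a cryptochrome that represses ARNTL and CLOCK, was 2.14, 2.20 and 2.68 on the WT arrays and 1.65, 1.72 and 1.95 on the Pck1-CKO arrays. These groups too did not overlap, with a difference of -0.57 ± 0.17 (limma adjusted p = 0.0868), or 1.48-fold higher in WT. Per2, the Period gene most needed for rhythm, stood at 0.54, 0.67 and 1.31 on the WT arrays and 0.67, 0.78 and 0.84 on the Pck1-CKO arrays. Apart from WT 3 the values of Per2 were close together. Its difference was -0.08 ± 0.21 (limma adjusted p = 0.831), and 0.16 without WT 3. The other Per2 probe, which was dimmer, gave -0.27 ± 0.16. On that probe the WT arrays were -4.22, -4.55 and -4.40, so WT 3 did not stand apart. Cry1, the partner of Cry2 that peaks later, was dim, with -4.71, -5.05 and -5.97 on the WT arrays and -4.81, -5.28 and -5.20 on the Pck1-CKO arrays. It was not well above background on WT 3, its groups overlapped, and the difference was 0.15 ± 0.34 (limma adjusted p = 0.801), or -0.22 without WT 3. The second Cry1 probe stayed below the limit for well above background on all 6 arrays and was not tested. Promoters of Per3, Cry1 and Cry2 are among those shown above.

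In the REV-ERB arm, Nr1d1 had signals of 0.73, 0.69 and 1.24 on the WT arrays and 0.05, 0.06 and 0.61 on the Pck1-CKO arrays. The highest Pck1-CKO array, replicate 3, came just below the lowest WT array. The log2 difference was -0.65 ± 0.22 (limma adjusted p = 0.11), 1.57-fold higher in WT. Nr1d2, its paralog with overlapping function, was 2.01, 2.12 and 2.36 on the WT arrays and 1.60, 1.72 and 2.07 on the Pck1-CKO arrays. Here Pck1-CKO 3 lay above WT 1, so the groups overlapped. The difference was -0.37 ± 0.15 (limma adjusted p = 0.16), and the other probe gave -0.33 ± 0.16. Both REV-ERB genes thus had the opposite sign to Arntl.

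Dbp, a PAR bZIP gene with a wide daily swing in many tissues, showed the largest difference of the set. Its signals were 5.11, 5.14 and 5.91 on the WT arrays and 4.05, 4.09 and 4.90 on the Pck1-CKO arrays. No Pck1-CKO array reached the lowest WT array, and replicate 3 was again the highest of each genotype. On the linear scale the processed signal was 18225, 19692 and 35068 on the WT arrays and 9280, 9845 and 17420 on the Pck1-CKO arrays. The log2 difference was -1.04 ± 0.32 (limma adjusted p = 0.0962), 2.05-fold higher in WT, and 98.6% of tested genes differed by less in size. Its other probe gave -0.99 ± 0.34. Tef, a PAR bZIP gene of lower amplitude, was 6.18, 6.19 and 6.63 on the WT arrays and 6.11, 6.13 and 6.23 on the Pck1-CKO arrays. WT 3 stood apart and the remaining arrays lay within a narrow range, with a difference of -0.17 ± 0.13 (limma adjusted p = 0.409) and of -0.03 without WT 3. The other 2 Tef probes gave -0.23 ± 0.07, with groups that did not overlap, and -0.11 ± 0.17.

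**Figure D1:**
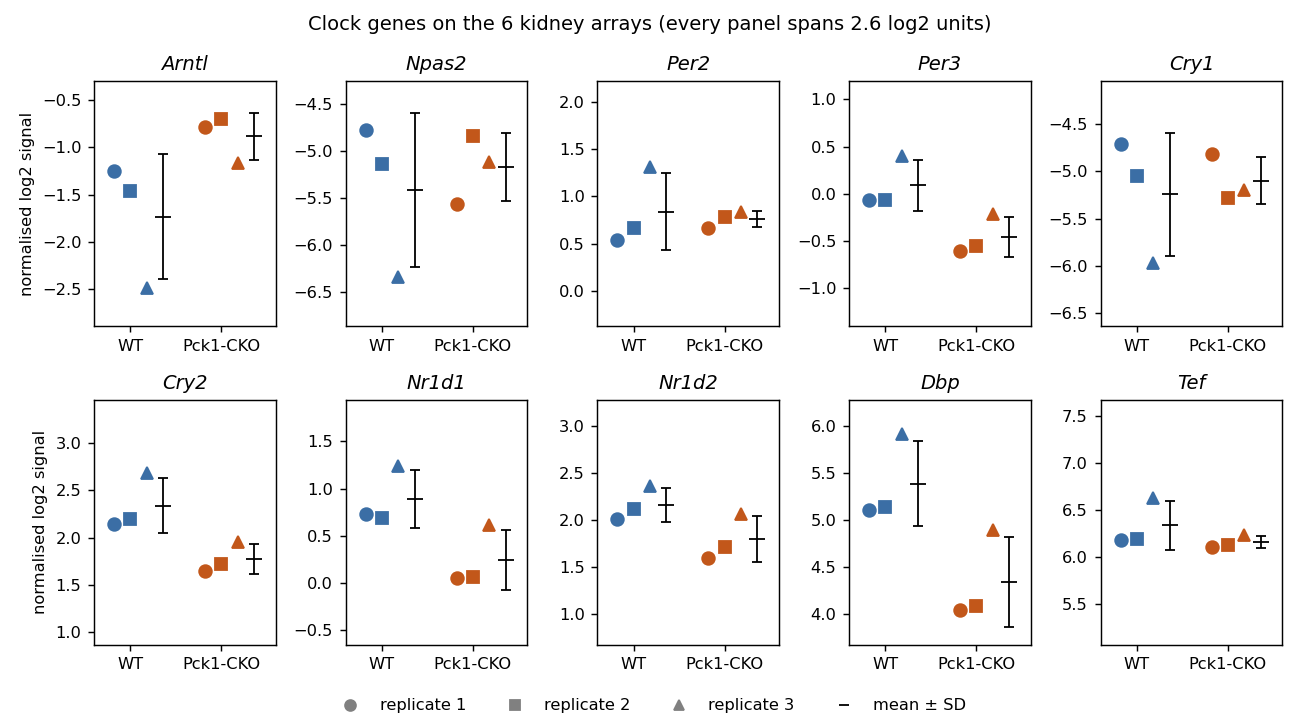
Normalised log2 signal of the 10 clock genes on each array, with WT in blue, Pck1-CKO in orange, a marker shape per replicate number and the mean ± SD of each group in black. Arntl is higher and Per3, Cry2, Nr1d1 and Dbp are lower on all Pck1-CKO arrays than on any WT array, and WT replicate 3 is the extreme array of its group in every panel. For Npas2 and Cry1 the value of WT replicate 3 was not well above background.

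Across probes the genes kept their sign. Of 8 further probes tested, 8 had the same sign as the probe that stood for their gene. When every tested probe was a row of the limma fit, 0 of the 8 passed the threshold, beside 1647 of all 38366 tested probes. Probes of one gene share its RNA and are not separate evidence.

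**Figure D2:**
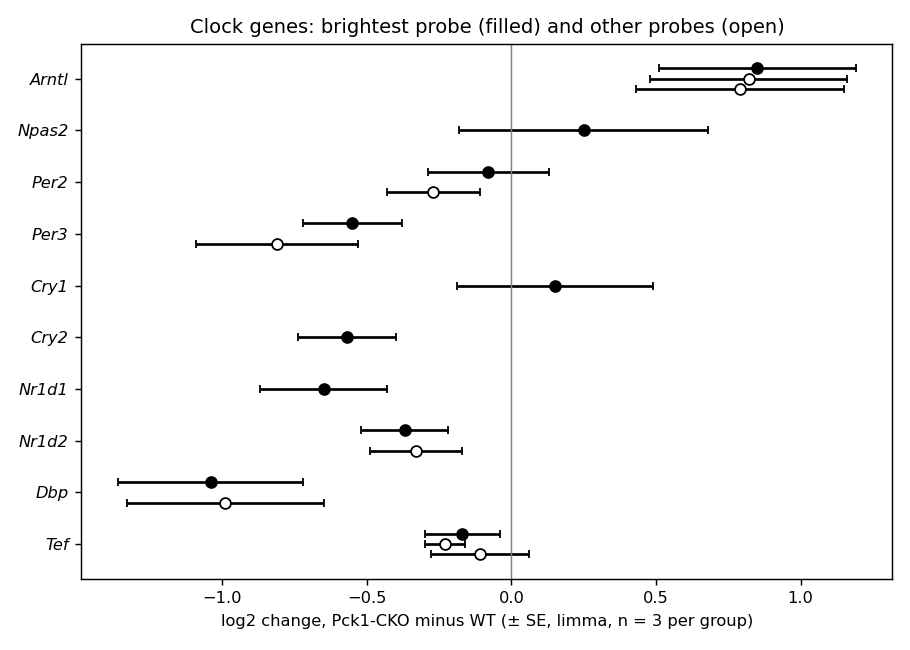
Log2 difference of Pck1-CKO minus WT for each tested probe of the 10 clock genes, with the standard error from limma (n = 3 per group). Filled points are the probe that stands for the gene and open points the other probes, which lie on the same side of 0.

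Arrays of one genotype differed in clock genes more than in most genes. The median within-group SD over the 10 genes was 0.36 in WT and 0.25 in Pck1-CKO, against 0.08 and 0.07 over all tested genes. In WT the SD was 0.82 for Npas2, 0.66 for Arntl, 0.65 for Cry1, 0.46 for Dbp and 0.41 for Per2, above that of between 95.9% and 99.4% of tested genes. For Npas2 and Cry1 the SD includes WT 3, where neither gene was well above background. In Pck1-CKO it was widest for Dbp at 0.48, above 97.1% of genes, whereas Tef at 0.06 and Per2 at 0.09 were near the typical gene.

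**Figure D3:**
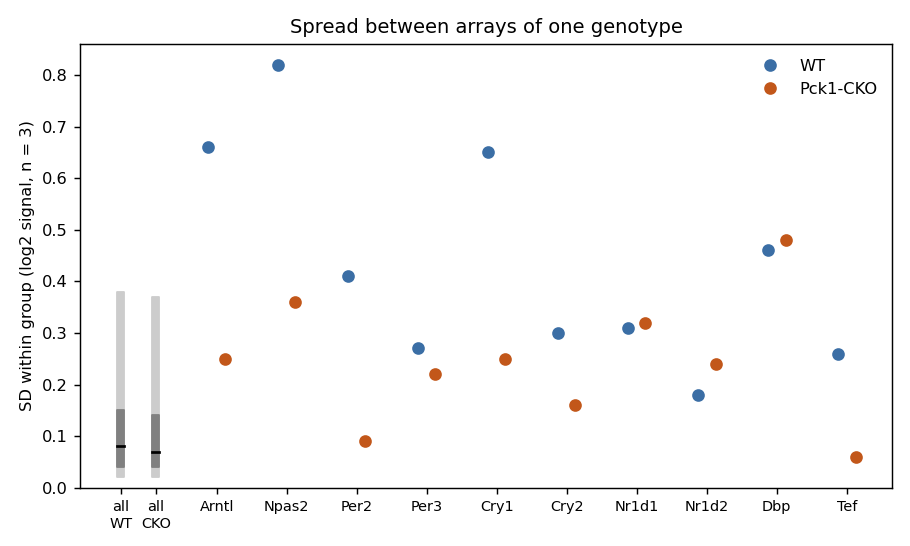
Standard deviation of log2 signal between the 3 arrays of a genotype for each clock gene, beside all tested genes at the left (dark bar from the 25th to the 75th percentile, light bar from the 5th to the 95th, line at the median). Most clock genes lie above the dark bar in both genotypes, and Npas2, Arntl and Cry1 are the widest in WT. Npas2 and Cry1 were not well above background on WT replicate 3.

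This spread followed a pattern over genes. WT 3 was the highest WT array for 7 of the 10 clock genes (Per2, Per3, Cry2, Nr1d1, Nr1d2, Dbp and Tef) and the lowest for the other 3 (Arntl, Npas2 and Cry1). Against the mean of WT 1 and WT 2, WT 3 deviated by -1.13 for Arntl, -1.38 for Npas2 and -1.09 for Cry1, and by 0.79 for Dbp, 0.70 for Per2 and 0.53 for Nr1d1. These are descriptions of 1 array, on the probe that stood for each gene. On the other, dimmer probe of Per2, WT 3 lay between WT 1 and WT 2. On WT 3 neither Npas2 nor Cry1 was well above background, so their deviations rest on values near background. Of the 3 genes lowest on WT 3, only Arntl was well above background there. The median absolute deviation of WT 3 was 0.62 over the clock genes and 0.10 over all tested genes. Pck1-CKO 3 was likewise the highest of its group for those 7 genes and the lowest for Arntl, with deviations of 0.83 for Dbp, 0.55 for Nr1d1, 0.41 for Nr1d2, 0.37 for Per3 and -0.43 for Arntl. For Npas2 and Cry1 it lay between the others. Over all tested genes the deviations of WT 3 and Pck1-CKO 3 had a correlation of -0.02, which is across genes, and genes are not independent replicates. Both arrays were in slide column 3, and the part of slide position in the clock gene values was not tested. Taking the 4 arrays of replicates 1 and 2 alone, the mean of Pck1-CKO minus the mean of WT was -1.05 for Dbp, -0.65 for Nr1d1, -0.52 for Per3, -0.49 for Cry2, -0.41 for Nr1d2 and 0.61 for Arntl. That of Per2 was 0.12, of Tef -0.06, of Cry1 -0.17 and of Npas2 -0.24. In a limma fit to those 4 arrays, chosen after seeing the values, 6 clock genes had an adjusted p under 0.05 (1 higher and 5 lower), and so did 14.3% of all genes. Because the arrays left out were those that widened the spread, these calls are not independent support.

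The rest of the clock loop was read from a list of 13 genes, of which 12 were tested. In it 1 gene rose and 1 fell by limma, where 4.34% of all tested genes rose and 3.7% fell. The median log2 difference was -0.01, as against 0.01 over all tested genes. Bhlhe40, which encodes a repressor that competes for E-boxes, was 0.95, 1.01 and 1.01 on the WT arrays and 0.44, 0.48 and 0.55 on the Pck1-CKO arrays. It fell by 0.51 on the log2 scale (SE 0.05, limma adjusted p = 0.0149). Noct, which encodes the rhythmic phosphatase nocturnin, was 0.58, 0.79 and 0.96 on the WT arrays and 1.75, 1.85 and 1.46 on the Pck1-CKO arrays. It rose by 0.91 ± 0.14 (limma adjusted p = 0.0294). The SD within a group was 0.04 and 0.06 for Bhlhe40 in WT and Pck1-CKO, and 0.19 and 0.20 for Noct. On leaving out 1 array the difference of Bhlhe40 stayed between -0.54 and -0.48 and that of Noct between 0.81 and 1.02. Neither passed without WT 1, WT 2, Pck1-CKO 1 or Pck1-CKO 2, where limma's adjusted p lay between 0.0555 and 0.118. The following genes were chosen after their values were seen. Ciart, a repressor of ARNTL and CLOCK, was -3.00, -3.11 and -1.27 on the WT arrays and -4.02, -3.77 and -3.31 on the Pck1-CKO arrays, a difference of -1.24 ± 0.53. Nfil3, the D-box repressor that opposes Dbp, was -0.06, -0.01 and -1.76 on the WT arrays and 0.63, 0.72 and 0.14 on the Pck1-CKO arrays, a difference of 1.10 ± 0.50. WT 3 was the extreme WT array in both, with the sign it had for Dbp in Ciart and for Arntl in Nfil3. Per1, the Period gene that also answers to hormones, was 1.81, 1.90 and 2.51 on the WT arrays and 2.68, 2.73 and 2.32 on the Pck1-CKO arrays. Its difference of 0.50 ± 0.22 was positive, with Pck1-CKO 3 below WT 3. Clock differed by 0.14 ± 0.06, Rora by -0.09, Hlf by -0.07 and Arntl2 by -0.01, and limma's adjusted p of these 7 genes lay at 0.174 or above.

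Genes that act on clock proteins or answer to the clock were read from further lists. Among 15 kinase, ligase and cofactor genes none passed in limma, where 8.04% of all tested genes did. Of the 15, 3 had an unadjusted p under 0.05 with a positive difference and 0 with a negative one. Over all tested genes those shares were 17.5% and 13.7%. The casein kinase gene Csnk1d, whose product marks PER proteins for breakdown, had the lowest p, with a difference of 0.12 ± 0.04 (limma adjusted p = 0.118), and the list's differences ran from -0.14 to 0.15 with a median of -0.01. Of 8 known targets of the PAR bZIP factors 1 rose, the cytochrome P450 gene Cyp2b10, by 5.12 ± 0.87 (limma adjusted p = 0.034), with -6.48, -7.83 and -5.69 on the WT arrays and -0.82, -0.63 and -3.20 on the Pck1-CKO arrays. Of the WT arrays 1 had it well above background, and with normexp background correction its difference was 2.08. Its sign was opposite to that of Dbp and Tef, and the median of the list was 0.12. Of 14 clock output genes 1 rose, Elovl3, which makes long-chain fatty acids and is also in the adipose list. Elovl3 did not rise well above background in any of the WT arrays, and by the 75th percentile scaling it was at least 3.76-fold higher in Pck1-CKO (limma adjusted p = 0.0152). With normexp, which adds an offset of 50 to every signal, the difference of Elovl3 was 0.49, or 1.40-fold (limma adjusted p = 0.00624). The median of that list was 0.15. In it 5 genes had an unadjusted p under 0.05 in limma with a positive difference and 0 with a negative one. Of all tested genes 4.34% rose and 3.7% fell in limma, so 1 call among 8 or 14 genes says little about a list.

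Signals that can reset peripheral clocks were covered by lists of glucocorticoid targets, temperature-driven transcripts and immediate early genes. The glucocorticoid list shares members such as Per1 and Sgk1 with the output list. In limma 4.34% of all tested genes rose and 3.7% fell. With lists this short, 1 or 2 calls in 1 direction say little about a list. At limma's unadjusted p under 0.05, 17.5% of all tested genes were higher and 13.7% lower. At that limit stood 5 higher and 2 lower of 13 glucocorticoid targets. Of 11 temperature-driven transcripts 6 were higher and 3 lower, and of 14 immediate early genes 4 were higher and 1 lower. These are counts, and no list was tested as a set. Of 13 glucocorticoid targets 1 rose and 2 fell, with a median log2 difference of 0.37. Tsc22d3, the glucocorticoid-induced leucine zipper gene, was 2.07, 2.10 and 2.39 on the WT arrays and 2.86, 2.86 and 2.66 on the Pck1-CKO arrays and rose by 0.61 ± 0.10 (limma adjusted p = 0.0349). The metallothionein genes Mt1 and Mt2, which bind zinc and also answer to metals, each fell by 0.50 (limma adjusted p = 0.0149 and 0.0294). Of 11 temperature-driven transcripts 2 rose and 2 fell, with a median of 0.18. The cold-inducible RNA-binding protein genes Rbm3 and Cirbp fell by 0.43 and 0.36 (limma adjusted p = 0.0392 and 0.0431), and the heat shock genes Dnajb1 and Hsph1 rose by 0.34 and 0.28 (limma adjusted p = 0.0349 and 0.0448). Averaged over all tested probes of the gene, the difference of Rbm3 was -0.07 and that of Hsph1 was 0.16. Of 14 immediate early genes tested 2 rose, the transcription factor genes Klf2 by 0.41 and Klf4 by 0.29 (limma adjusted p = 0.0367 and 0.0449), with a median of 0.14. Leaving out 1 array moved the differences little, from -0.53 to -0.48 for Mt1, 0.55 to 0.71 for Tsc22d3 and 0.31 to 0.39 for Dnajb1. Over the 24 genes that passed in the lists examined, markers included, they stayed between 77.7% and 119% of the value with all arrays, and none changed sign. The calls were lost more often. Of the 24, leaving out WT 1 left 5, leaving out WT 3 left 19 and leaving out Pck1-CKO 3 left 16, and 0 passed when WT 2, Pck1-CKO 1 or Pck1-CKO 2 was left out.

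**Figure D4:**
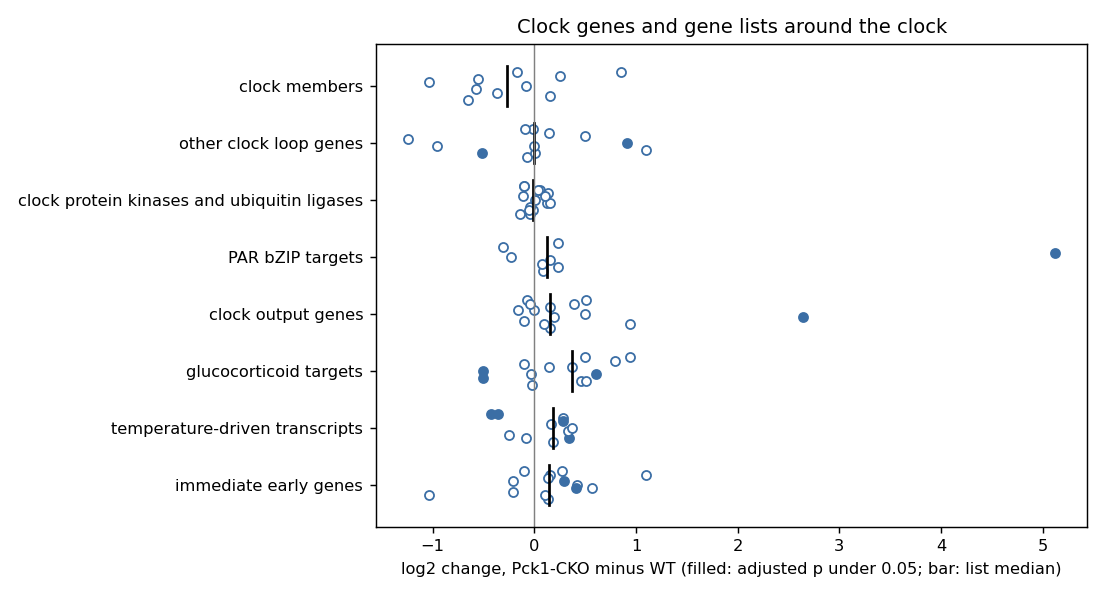
Log2 difference of Pck1-CKO minus WT for every tested gene of the clock set and of 7 lists around it, with filled points for an adjusted p under 0.05 in limma and a bar at the list median. No clock gene is filled, and the glucocorticoid list has the highest median at 0.37.

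The profiles most like those of Arntl and Dbp over the 6 arrays were sought by the root mean square distance after centring each gene on its own mean. Nearest to Arntl were AF366264 (0.13), Mrap2 (0.15), Rfesd (0.15), Glrx (0.19) and Spaca7 (0.21). For Dbp they were Igfbp1 (0.09), Bhlhe41 (0.14), Gm40787 (0.17), Tnfsf15 (0.20) and B930025P03Rik (0.21). The distances are in log2 units. Because these genes were picked for their likeness to Arntl or Dbp over all 6 arrays, the choice also fixed differences close to those of Arntl and Dbp. They ran from 0.75 to 1.01 beside Arntl and from -1.20 to -0.96 beside Dbp. Bhlhe41, which encodes the relative of the repressor made from Bhlhe40, was well above background on 3 WT arrays but on 1 of 3 Pck1-CKO arrays, so its difference of -0.96 ± 0.37 rests partly on values near background. Igfbp1 is an insulin-regulated binding protein gene.

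Under 19 alternative analyses the difference of Dbp lay between -1.31 and -0.77 and that of Arntl between 0.47 and 1.09. The range was -0.83 to -0.47 for Nr1d1, -0.50 to -0.27 for Nr1d2, -0.68 to -0.40 for Per3 and -0.67 to -0.40 for Cry2. Of the 19, Dbp and Cry2 passed the threshold under 3 and Per3 under 2. Arntl, Nr1d1 and Nr1d2 passed under 1, the omission of both arrays of slide column 3. Tef lay between -0.25 and -0.03 and passed under none of them, with limma adjusted p from 0.276 to 0.754.

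**Figure D5:**
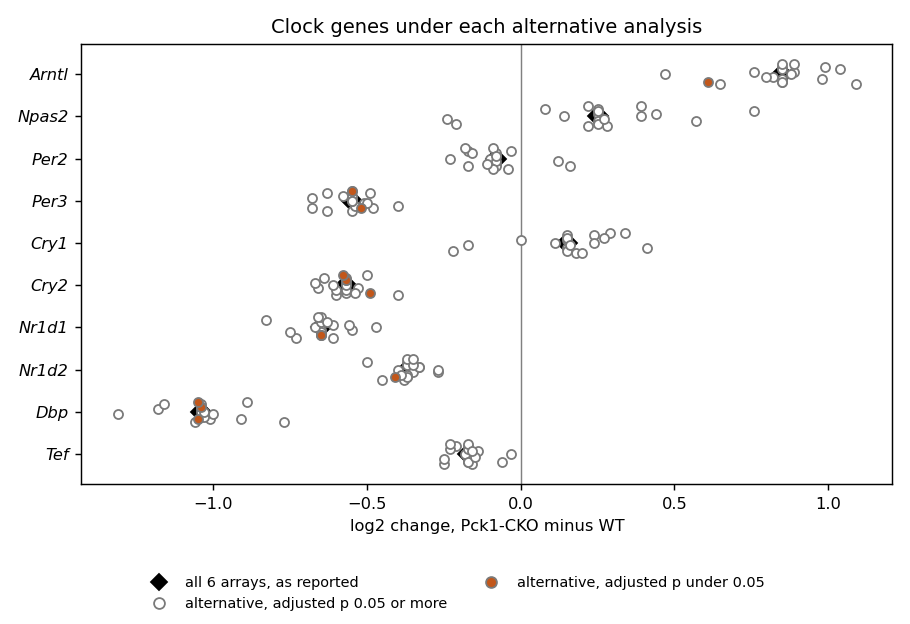
Log2 difference of Pck1-CKO minus WT for each clock gene as reported (diamonds) and under each alternative analysis (circles, coloured where limma's adjusted p was under 0.05). Npas2, Per2 and Cry1 cross 0, whereas Arntl, Per3, Cry2, Nr1d1, Nr1d2, Dbp and Tef stay on one side.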

How the data were processed

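Cy3-labelled RNA of 6 kidney samples was run on Agilent arrays of 1 colour, per the labels. The authors deposited scanner output made with Agilent Feature Extraction 10.7.1.1 (per the submitters' processing notes), whose linear intensity values, per the file headers, had background and spatial trend removed. A table of linear ratio values was deposited too, each the processed signal over 1 factor per array, as found by setting it against the scanner values. The software behind it was not given in the sources used here.

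Outlier spots were left out (46 to 94 per array), log2 was taken, the mean over a probe's spots was used and the 75th percentile of its array was subtracted. Probes were named through unversioned RefSeq accessions from the GRCm38.p6 gene table. Of 56605 probes, 34675 had 1 symbol. The files' annotation is on another build, so probe coordinates are not given. Genes needed a probe that 3 or more of 6 arrays had well above background, which all 10 clock genes had. The brightest probe stood for a gene, and limma 3.58.1 (lmFit and eBayes, R 4.3.3) was run on 17136 genes, 2-sided, with Benjamini-Hochberg adjustment over all genes and a threshold of 0.05. The procedure was tested on simulated data. Where no array of a group had a gene well above background, its fold is a bound. On each such array the gene was set to its own signal or, if higher, to the lowest signal of any probe well above background there.

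The clock genes and lists were chosen with earlier results of these data known, so no list was given a test of its own. Named genes were the 10 clock genes, Pck1, of each list up to 4 genes past the threshold with the smallest p (or the 1 with the smallest p where none passed), and the 5 profiles nearest to Arntl and to Dbp; exceptions are marked in the text. Where no gene passed in the other marker lists, the lowest p was that of Hsd3b1 (log2 difference -0.16) for adrenal and Alas2 (0.41) for blood. S100a8 rose by 1.70 in the immune list. In the kidney list Aqp2 rose by 0.63, and Slc4a1 and Slc12a3 fell by 0.88 and 0.43. Some genes of the lists are not reported here by name. Alternatives covered normalization, background, source of values, filter, probe choice, variance model, outlier spots, left-out arrays and a replicate block. Normexp with offset 50 was run on median spot and background signals.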

Additional observations from a re-analysis of the deposited data

How the results depend on the processing

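Of 188 values of the 10 clock genes under the alternatives, 171 kept their direction and their side of the threshold, 11 passed it and 6 changed sign. The count of clock genes past the threshold was 0 as reported and 0 without any single array. It was 2 (Cry2 and Dbp) with normexp and quantile normalization, where 10.9% of all genes passed, 3 (Per3, Cry2 and Dbp) with an intensity trend in the variance model, where 16.5% did, and 6 without both arrays of slide column 3, where 14.3% did. Without both arrays of slide column 1 or of column 2 it was 0. These 3 omissions were chosen after seeing the data. The changes of sign came without WT 3, at -0.21 for Npas2, 0.16 for Per2 and -0.22 for Cry1, and without both arrays of column 3, at -0.24, 0.12 and -0.17. The count of all genes past the threshold, 1377 as reported, was 142 with no filter on dim probes, 2822 with the intensity trend, 1, 0 and 2458 without both arrays of column 1, 2 and 3, and between 25 and 1531 on leaving out 1 array. Leaving out 1 array gave -0.21 to 0.57 for Npas2, -0.23 to 0.16 for Per2 and -0.22 to 0.41 for Cry1. Causes were not tested. Same-numbered samples did not deviate together over all genes (correlations of 0.00, -0.11 and -0.02), so the numbers were not used as pairs. With the replicate block, which is also the slide column, 4 genes passed in all and 0 clock genes, and adjusted p was 0.0532 for Dbp, 0.069 for Per3 and Nr1d1, and 0.0762 for Cry2 and Nr1d2. Within slide columns 1, 2 and 3 the difference of Dbp was -1.05, -1.05 and -1.01, that of Nr1d1 -0.68, -0.63 and -0.64, and that of Arntl 0.46, 0.76 and 1.32. Npas2 and Cry1 were near background, which limits what their values can show.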
